A study of Mus musculus with 9 samples.

Results

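The genes described here encode the acid hydrolases and other lumenal proteins of the lysosome, its main membrane proteins, the vacuolar proton pump (V-ATPase) and the TFEB-family transcription factors. They were taken from the deposited table by symbol: every gene whose symbol starts with Atp6v0, Atp6v1 or Atp6ap, together with 21 named genes outside the pump. This gave 47 of 26157 genes, of which 26 belong to the V-ATPase by name. Cathepsins were left out by that rule, and Atp6v1g3 was not analysed here.

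Poly-A RNA was sequenced from J774A.1, an established mouse macrophage line of tumour origin, in 3 groups of 3 libraries. The Q11 libraries came from cells given IL-4, IL-13 and, at the same time, Q11, which the series title describes as inhibiting CYP2E1, a cytochrome P450. The M2 libraries came from cells treated with these cytokines (10 ng/mL) but no Q11; both cytokines drive macrophages towards the alternatively activated (M2) state. The Ctrl libraries came from cells in normal culture. The Q11 dose, the cytokine dose of the Q11 cells and the duration of treatment are not stated in the labels, and all libraries come from 1 cell line. Levels are in TPM, the share of a library's transcripts scaled to a fixed total, which divides reads by exon length, so that levels can be compared between genes. Between libraries they compare shares: as the total is fixed, a change in abundant transcripts also shifts the shares of the others.

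Lysosomes break down material delivered by endocytosis, phagocytosis and autophagy, and their hydrolases need an acid lumen. The V-ATPase makes that acid: its peripheral V1 sector hydrolyses ATP, and the rotation this drives pumps protons through the membrane-embedded V0 sector. TFEB, TFE3 and MITF can switch on many genes of both kinds through a palindromic promoter element, the CLEAR motif, and macrophages, which digest what they engulf, are rich in lysosomes.

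Whole reads could be recovered from the TPM values, and 8 libraries held 15815847 to 17095787 of them. Q11 replicate 2 held 32193523 reads, and it held fewer than Q11 replicate 3 in only 11 of the 19252 genes read in that library, against 1929 to 2413 genes when set against each of the other 7 libraries. These 2 libraries are therefore treated as sharing reads, and an SD over the 3 Q11 libraries understates their spread. Counts of calls against Ctrl are given also with the shared reads separated, that is, after taking the counts of Q11 replicate 3 out of those of Q11 replicate 2. The fit below takes 1 estimate of the spread from all 9 libraries. As deposited, its intervals may thus be too narrow and its p-values too small, also in M2 against Ctrl. That comparison called 1794 of 14207 genes as deposited and 1292 of 14015 genes with the shared reads separated. All 12 of 12 macrophage markers were at 1 TPM or more in every library, with summed levels of 11108 to 11179 TPM in Q11, 10691 to 11528 TPM in M2 and 15507 to 16062 TPM in Ctrl. Of the lists for other cell types, 7 summed to under 3 TPM in every library. Of these, the hepatocyte, epithelial, T cell and mast cell lists had 1 measured gene each. The fibroblast, B cell and endothelial lists had 3 each. The neutrophil list summed to 16.9 to 19.8 TPM in Q11, 17.2 to 29.5 TPM in M2 and 29.4 to 38.0 TPM in Ctrl. The osteoclast list, which holds lysosomal and matrix enzymes that macrophages also make, summed to 582 to 625 TPM in Q11, 613 to 691 TPM in M2 and 813 to 882 TPM in Ctrl. The part that these lists play in the results was not tested.

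RefSeq promoter windows (build GRCm38.p6, 250 bases before to 50 bases after a start) were matched to 38 of the 47 genes by symbol, and some genes had more than 1 window. The CLEAR core, TCACGTGA, reads the same on both strands and contains the E-box CACGTG. It occurred in 5 of the 47 windows of these genes, against 320 of 32851 windows of all genes (0.974%). These are the stretches around it, shown because this element is the sequence that ties the family to TFEB; the core is in capitals and each is given 5′ to 3′ on the strand of its gene.
Atp6v1a: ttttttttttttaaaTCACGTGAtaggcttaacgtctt
Atp6v0d1: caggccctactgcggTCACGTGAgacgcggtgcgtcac
Atp6v0e: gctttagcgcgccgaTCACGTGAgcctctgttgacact
Mcoln1: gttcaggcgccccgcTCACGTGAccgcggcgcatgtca
Gla, first match: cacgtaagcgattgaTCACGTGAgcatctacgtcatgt
Gla, second match: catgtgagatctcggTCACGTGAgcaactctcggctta
The stretches lie at chr16:44139369-44139406 (minus strand) for Atp6v1a, chr8:105566046-105566083 (minus strand) for Atp6v0d1, chr17:26676383-26676420 (plus strand) for Atp6v0e, chr8:3500458-3500495 (plus strand) for Mcoln1, and chrX:134601211-134601248 and chrX:134601178-134601215 (minus strand) for Gla. The core begins at position -132 relative to the RefSeq start in Atp6v1a, -4 in Atp6v0d1, 2 in Atp6v0e, -46 in Mcoln1 and -228 and -195 in Gla. The RefSeq start lies 120 bases from the nearest annotated start in Gla and 15 to 46 bases from it in the other 4. Of these 5 genes, Atp6v1a rose in M2 cells against Ctrl, none fell, and the other 4 did not pass the test; in Q11 cells against Ctrl, Gla fell. An E-box was in the windows of 8 genes (7.15% of all windows held one) and the M-box TCATGTG, on either strand, in those of 6 (3.77% of all windows). The motif of STAT6, the factor that IL-4 and IL-13 activate, is TTC and GAA with 4 bases between them. It was in the windows of 2 genes, Atp6v0e2 and Tfeb, while 6.95% of all windows held one. These matches are a description, and a window without one says nothing about a factor.

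The lysosomal genes spanned a wide range of levels. Prosaposin (Psap), the precursor of the saposins that present lipids to hydrolases, had the highest level of the protein-coding genes here at 2303 to 2583 TPM over the 9 libraries. It was followed by progranulin (Grn) at 1263 to 1455 TPM and by Lamp1, the most abundant glycoprotein of the lysosomal membrane, at 1002 to 1077 TPM. The hydrolases ranged from Hexa, the alpha chain of beta-hexosaminidase, at 724 to 832 TPM, down to Asah1, acid ceramidase, at 129 to 155 TPM and Glb1, beta-galactosidase, at 139 to 156 TPM. The calcium channel Mcoln1 (30.9 to 34.5 TPM) and Scarb2 (40.7 to 48.5 TPM), the receptor that carries beta-glucocerebrosidase to the lysosome, were the lowest of the membrane proteins that passed the filter. The regulators lay lower still or close to them, with Mitf at 28.1 to 32.4 TPM, Tfe3 at 24.5 to 26.6 TPM and Tfeb at 15.97 to 18.4 TPM.

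**Figure D1:**
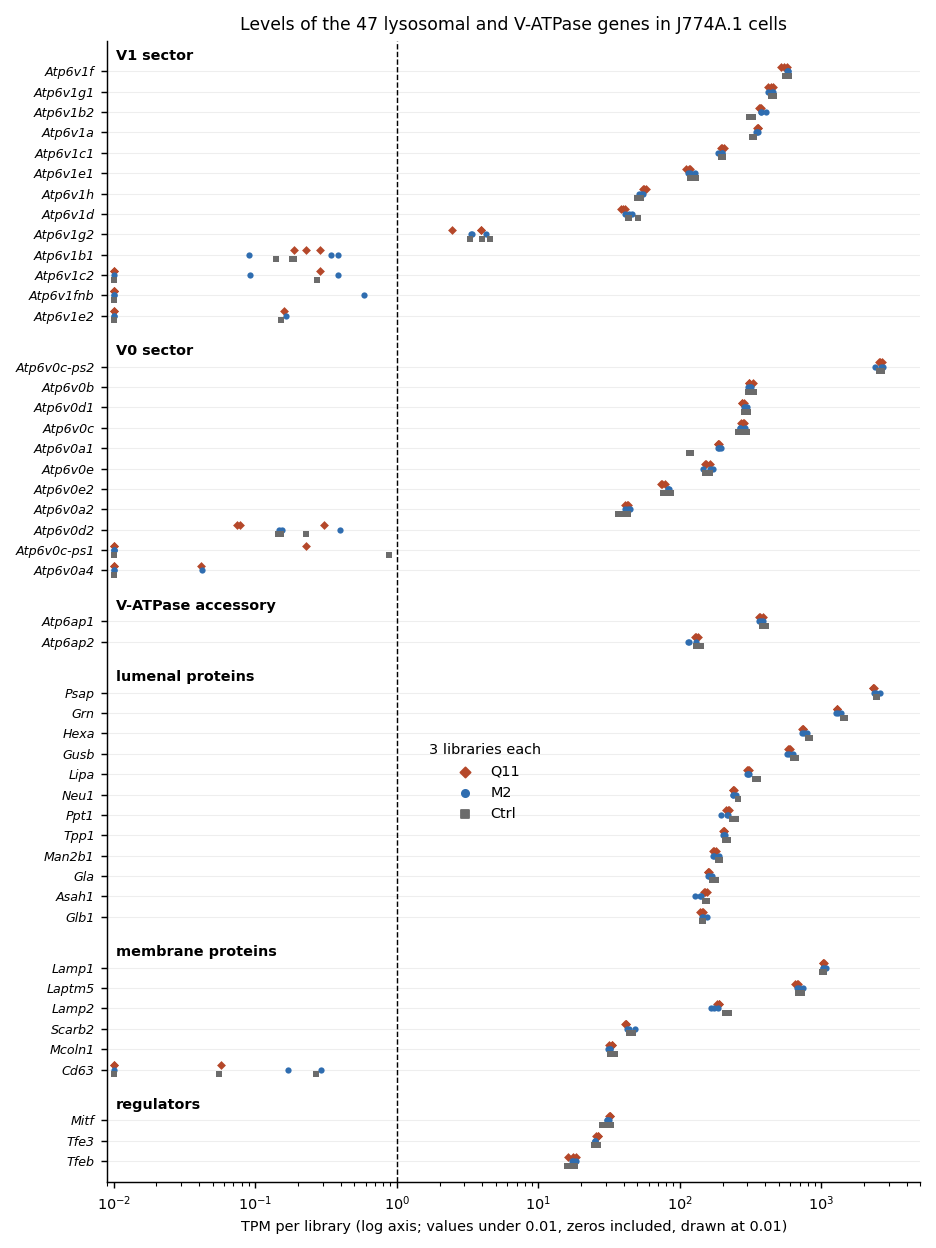
Level of each of the 47 genes in each library (TPM, log axis, values under 0.01 drawn at 0.01), grouped by role, with Q11 above M2 above Ctrl in each line and a dashed line at the 1 TPM of the filter. For 8 genes, Cd63 and Atp6v0d2 among them, no library reaches 1 TPM, while Psap stands at 2303 to 2583 TPM.

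Of the 47 genes, 39 had at least 1 TPM in at least 3 libraries and were tested, and 8 did not. In M2 cells against Ctrl cells 3 of the 39 rose and 7 fell by limma on log2(TPM + 1), with p-values adjusted over all 14207 genes tested and a threshold of 0.05. Of all genes tested, 6.88% rose and 5.75% fell. With the shared reads separated, 3 of the 39 rose and 4 fell, against 4.92% and 4.3% of 14015 genes. Calls and p-values after separation are of this limma fit unless limma-voom is named. The rises in this fit were in the V-ATPase (3 of its 19 tested genes, with 0 falls) and the falls outside it (7 of 20, with 0 rises), namely in 6 of 12 lumenal proteins, or 3 after separation, and 1 of 5 membrane proteins. Limma-voom on the recovered reads gave 3 rises and 9 falls, with Gusb (adjusted p = 0.0219) and the V-ATPase accessory gene Atp6ap2 (adjusted p = 0.0115) as further falls. Over all 13988 genes in that fit, 1158 rose and 1127 fell. The counts by role are a description of the list, and the difference between roles was not tested. In each comparison with Ctrl, the 95% interval of the typical gene of the 39 reached 0.0849 to either side of its difference (median). The median was 0.0754 over the lumenal genes and 0.178 over all genes tested. Smaller differences could thus pass in these 39 genes than in the typical gene tested. Their share of calls is therefore not directly comparable with that over all genes. The median log2 difference was -0.01 over the V-ATPase genes, -0.08 over the others and -0.00256 over all genes tested. Quantile normalization gave 2 rises and 10 falls, while 846 of all 14207 genes rose and 801 fell. The count of calls was 4 without a mean-variance trend (1312 over all genes) and 4 with only the M2 and Ctrl libraries in the fit (1054). It was 5 without Ctrl replicate 1 (1139 over all genes) or Ctrl replicate 3 (1161) and 6 without Ctrl replicate 2 (1306).

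Cells given Q11 with the cytokines differed from Ctrl in much the same numbers, with 3 of the 39 genes rising and 7 falling, while 5.19% of all genes tested rose and 5.53% fell. Separating the shared reads left 3 rises and 4 falls, against 3.96% and 3.93% of all genes. The rises were again in the V-ATPase (3 of 19), and the falls were in 6 of 12 lumenal (3 after separation) and 1 of 5 membrane proteins. Limma-voom gave 3 rises and 10 falls, with Ppt1 (adjusted p = 0.00878), the V1 gene Atp6v1d (adjusted p = 0.0256) and Man2b1 (adjusted p = 0.0396, but 0.123 after separation) as further falls. With limma-voom, 993 of all 13988 genes rose and 1103 fell. This comparison uses the same Ctrl libraries as the one before it, so the likeness of the counts is no separate evidence. All 12 lumenal genes had a negative log2 difference, as did 6954 of the 14207 genes tested. The median log2 difference was -0.03 over the V-ATPase genes, -0.09 over the others and 0.00350 over all genes tested. Quantile normalization gave 2 rises and 9 falls, while 687 of all 14207 genes rose and 838 fell. The fit without a trend made 4 calls (1103 over all genes). Leaving out Q11 replicate 2 or Q11 replicate 3 left 4 calls (798 and 776 over all genes). Leaving out Q11 replicate 1, Ctrl replicate 1 or Ctrl replicate 2 left 6 (1067, 1059 and 1064 over all genes). The labels do not say whether the libraries of a group are separate cultures, so the p-values measure only the spread between these samples. In bulk RNA, fewer cells of a type and less RNA per cell cannot be told apart.

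**Figure D2:**
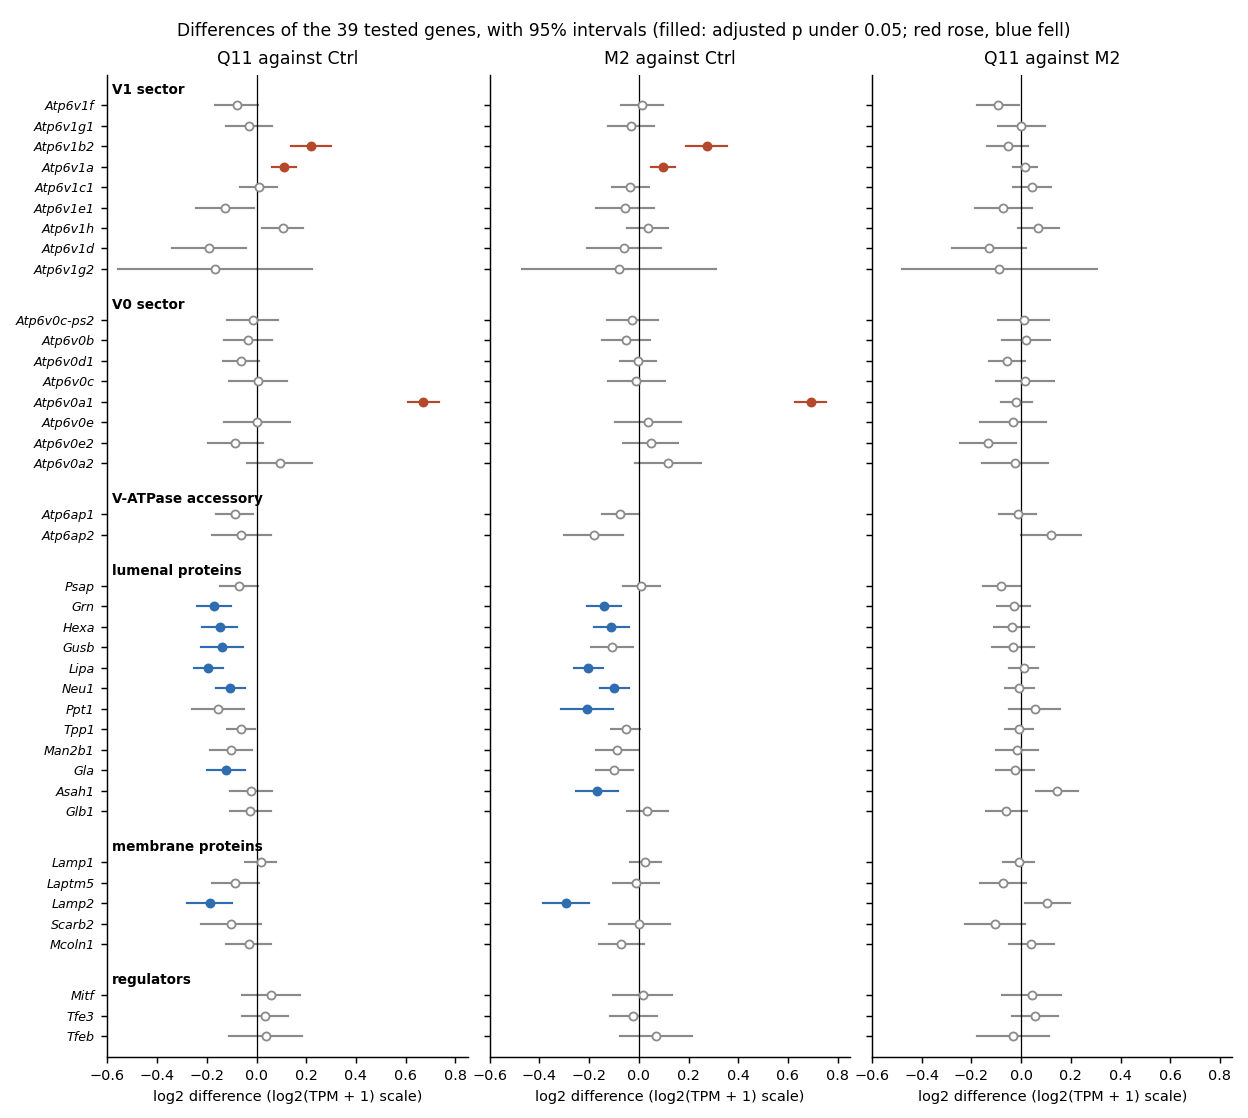
Log2 difference of each of the 39 tested genes with its 95% interval (log2(TPM + 1) scale), for Q11 against Ctrl, M2 against Ctrl and Q11 against M2; filled points passed the adjusted threshold of 0.05. Atp6v0a1 stands at 0.67 and 0.69 against Ctrl, the other calls lie between -0.29 and 0.27, and no point is filled in Q11 against M2.

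Direct comparison of Q11 with M2 cells, which asks what Q11 adds to the cytokines, called 0 of the 39 genes with limma, and 0% of all 14207 genes tested. At an unadjusted p under 0.05 there were 6 of the 39 genes and 1620 of all genes, and limma-voom on the recovered reads called 0 of the 39 and 2 of all genes. The smallest adjusted p over all genes was 0.213 with limma and 0.0101 with limma-voom. With the shared reads separated, limma-voom called 0 of all genes, and its smallest adjusted p was 0.0700. At an unadjusted p under 0.05, limma then had 3 of the 39 and 1127 of 14015 genes. The 39 log2 differences ran from -0.13 to 0.15, and the 95% interval of the typical gene reached 0.08 to either side of its difference (median). The gene with the smallest p was Asah1, which frees sphingosine from ceramide. Asah1 had 149, 147 and 155 TPM in the Q11 libraries, 129, 140.0 and 139 TPM in the M2 libraries and 151, 151 and 155 TPM in the Ctrl libraries. The M2 libraries lay below all others as deposited, and the Q11 libraries overlapped those of Ctrl. With the shared reads separated, Q11 replicate 2 had 139 TPM of Asah1, within the range of the M2 libraries. The log2 difference of Q11 against M2 for Asah1 was 0.15 (95% interval 0.06 to 0.23), with an adjusted p of 0.312, so that this difference did not pass. Against Ctrl, Asah1 fell by 0.17 on the log2 scale in M2 cells with limma (adjusted p = 0.0201). This call was lost with the shared reads separated (adjusted p = 0.0559) and without Ctrl replicate 1 or 3 (up to 0.0689). That call was lost also with only the M2 and Ctrl libraries in the fit (adjusted p = 0.0531) and without a mean-variance trend. Limma-voom after separation called the fall of Asah1 in M2 cells (adjusted p = 0.0182). In Q11 cells against Ctrl the log2 difference of Asah1 was -0.02 (95% interval -0.11 to 0.06).

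Among all 39 tested genes Atp6v0a1 differed most from Ctrl. It encodes the a1 form of the V0 a subunit (ENSMUSG00000019302, GRCm38 chr11:101009452-101063719, plus strand), the part of the pump that holds the proton channels and helps to set the membrane to which the pump goes. Atp6v0a1 had 186, 189 and 186 TPM in the Q11 libraries, 195, 185 and 189.8 TPM in the M2 libraries and 119, 115 and 118 TPM in the Ctrl libraries. Every treated library lay above every Ctrl library, and the Q11 and M2 values overlapped. The mean was 1.62 times that of Ctrl in M2 cells and 1.60 times in Q11 cells. The log2 difference was 0.69 (95% interval 0.63 to 0.75, adjusted p = 2.08e-06) in M2 and 0.67 (0.61 to 0.73, adjusted p = 2.64e-06) in Q11 cells, and -0.02 (-0.08 to 0.04) between Q11 and M2. Both calls against Ctrl held in 21 of 21 settings of the processing.

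The a subunit exists in 4 forms, and the pump holds 1 of them at a time. The levels of these forms given here are of RNA, and neither the proteins nor the assembled pumps were measured. Atp6v0a2, the form known mainly from the Golgi and endosomes, had 40.9, 42.9 and 42.4 TPM in the Q11 libraries, 44.5, 41.0 and 43.0 TPM in the M2 libraries and 36.4, 42.7 and 39.3 TPM in the Ctrl libraries. The groups overlapped, and its log2 difference was 0.12 in M2 (95% interval -0.02 to 0.25) and 0.09 in Q11 cells (-0.04 to 0.22). Atp6v0a4, the form of kidney intercalated cells, was at 0 to 0.0421 TPM in all 9 libraries. Tcirg1, which encodes the a3 form of lysosomes and of the osteoclast membrane and whose symbol the selection rule does not take in, was the most abundant: it had 380.3, 383 and 376 TPM in the Q11 libraries, 395, 400.0 and 382 TPM in the M2 libraries and 412, 427 and 407 TPM in the Ctrl libraries. Its log2 difference was -0.13 in Q11 (adjusted p = 0.0180, but 0.0666 once the shared reads were separated) and -0.08 in M2 cells (adjusted p = 0.0862). Limma-voom after separation gave an adjusted p of 0.0132 for Tcirg1 in Q11 cells.

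As a share of the summed TPM of the 4 forms, Atp6v0a1 made up 30.7, 30.8 and 30.8% in the Q11 libraries, 30.8, 29.5 and 30.9% in M2 cells and 20.9, 19.7 and 20.8% in Ctrl cells. The share was thus higher in all treated libraries than in any Ctrl library, by 9.89 percentage points in M2 and 10.2 in Q11 cells. A two-sided exact permutation test on these shares gave p = 0.1 for each of the comparisons with Ctrl, the smallest value that 3 against 3 libraries allow, and 0.8 for Q11 against M2 (0.15, 0.15 and 0.8 adjusted over 3 tests). Tcirg1 made up 62.3 ± 0.213% in Q11, 62.8 ± 1.02% in M2 and 72.6 ± 0.417% in Ctrl cells (SD, n = 3 each). The sum of the 4 forms was 609 ± 5.75 TPM in Q11, 625 ± 10.0 TPM in M2 and 572 ± 11.3 TPM in Ctrl cells.

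**Figure D3:**
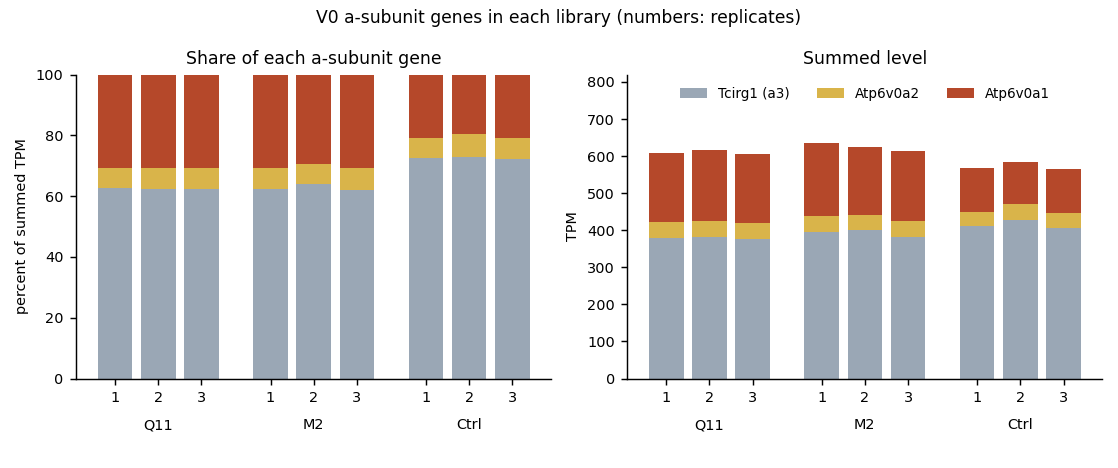
Share of each V0 a-subunit gene in the summed TPM of the a subunits (left, percent) and summed level (right, TPM) in each of the 9 libraries; Atp6v0a4, at 0 to 0.0421 TPM, is too low to show. The Atp6v0a1 part takes 29.5 to 30.9% of each bar in the Q11 and M2 libraries and 19.7 to 20.9% in the Ctrl libraries.

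In the V1 sector both genes of the ATP-hydrolysing head rose. Atp6v1b2, the B subunit of most tissues (ENSMUSG00000006273, GRCm38 chr8:69088646-69113711, plus strand), had 376, 364 and 365 TPM in the Q11 libraries, 373, 374 and 402 TPM in the M2 libraries and 317, 326 and 308 TPM in the Ctrl libraries. No treated library overlapped the Ctrl libraries, and M2 replicate 3 was the highest. Its log2 difference was 0.27 in M2 (95% interval 0.19 to 0.35, adjusted p = 0.00158) and 0.22 in Q11 cells (0.14 to 0.30, adjusted p = 0.00552), and both calls held in 21 of 21 settings. Atp6v1a, the catalytic A subunit (ENSMUSG00000052459, GRCm38 chr16:44085402-44139705, minus strand), had 352, 354 and 355 TPM in the Q11 libraries, 345, 355 and 350.5 TPM in the M2 libraries and 323, 331 and 328 TPM in the Ctrl libraries.
The treated libraries again all lay above Ctrl, but by a small margin: the mean was 7.03% higher in M2 and 8.11% higher in Q11 cells, with log2 differences of 0.10 (95% interval 0.05 to 0.15, adjusted p = 0.0193) and 0.11 (0.06 to 0.16, adjusted p = 0.0118). With quantile normalization the differences were 0.04 in M2 and 0.08 in Q11 cells and no longer past the threshold, and fits without 1 library gave adjusted p-values of up to 0.0735 in M2 (without Ctrl replicate 1 or 3) and 0.0578 in Q11 cells (without Q11 replicate 2 or 3). Neither call held without a mean-variance trend, and that in M2 cells was lost with only the M2 and Ctrl libraries in the fit (adjusted p = 0.0705). In the assembled pump the A and B subunits stand in equal numbers. At the level of RNA, the ratio of Atp6v1b2 to Atp6v1a was 1.04 ± 0.0243 in Q11, 1.09 ± 0.0479 in M2 and 0.968 ± 0.0246 in Ctrl cells (SD, n = 3 each). The subunit proteins were not measured.

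Atp6v1a is the member with a CLEAR core that rose, and its promoter window is shown here with that core in capitals (GRCm38.p6 chr16:44139210-44139509, minus strand, 5′ to 3′).
Atp6v1a: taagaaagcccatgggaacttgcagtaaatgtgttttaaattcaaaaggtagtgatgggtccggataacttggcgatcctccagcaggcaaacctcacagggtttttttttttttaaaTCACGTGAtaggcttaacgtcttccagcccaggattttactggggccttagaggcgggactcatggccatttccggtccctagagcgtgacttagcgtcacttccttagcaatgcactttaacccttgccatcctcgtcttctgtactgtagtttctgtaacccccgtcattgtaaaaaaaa
No window for Atp6v1b2 was matched, and that of Atp6v0a1 lies 259 bases from the nearest annotated start, so neither is shown. The window of Atp6v0a1 was still searched, and none of the motifs matched in it.

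None of the other 7 tested V1 genes passed against Ctrl with limma on log2(TPM + 1). They were Atp6v1f (518 to 587 TPM over all libraries), Atp6v1g1 (416 to 461 TPM) and Atp6v1e1 (111 to 131 TPM), which help to build the central and peripheral stalks, Atp6v1c1 (185 to 204 TPM) and Atp6v1h (50.03 to 57.1 TPM), which take part in the reversible assembly of the pump, and Atp6v1d (38.4 to 50.3 TPM) and Atp6v1g2 (2.46, 3.94 and 3.91 TPM in Q11, 4.28, 3.32 and 3.42 TPM in M2 and 4.52, 3.31 and 4.00 TPM in Ctrl). Atp6v1c1, whose counterpart Atp6v1c2 was nearly unread, had 198, 195 and 204 TPM in the Q11 libraries, 185, 197 and 198 TPM in the M2 libraries and 203, 195 and 196 TPM in the Ctrl libraries. Atp6v1g1 had 454, 419 and 440.1 TPM in the Q11 libraries, 416, 444 and 452 TPM in the M2 libraries and 461, 439 and 440.2 TPM in the Ctrl libraries. Atp6v1e1 had 116, 117 and 111 TPM in the Q11 libraries, 115, 119 and 128 TPM in the M2 libraries and 118, 131 and 127 TPM in the Ctrl libraries. Both treated groups overlapped Ctrl for Atp6v1c1 and Atp6v1g1, while the Q11 libraries of Atp6v1e1 lay below its Ctrl libraries (log2 difference -0.13, adjusted p = 0.168). With the shared reads separated, Q11 replicate 2 had 125 TPM of Atp6v1e1, within the Ctrl range. The Q11 libraries of Atp6v1d, at 38.4, 39.8 and 40.8 TPM, likewise lay below its Ctrl libraries (log2 difference -0.19, adjusted p = 0.108 with limma and 0.0256 with limma-voom), and those of Atp6v1h, at 55.3, 55.7 and 57.1 TPM, lay above them (0.10, adjusted p = 0.117). The summed level of the V1 genes was 2116 ± 48.3 TPM in Q11, 2164 ± 48.4 TPM in M2 and 2089 ± 23.3 TPM in Ctrl cells (SD, n = 3 each).

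Apart from Atp6v0a1, none of the other 7 tested V0 genes passed. The d subunit couples the proton ring to the V1 stalk, and macrophages and osteoclasts can use the inducible form Atp6v0d2 beside the common Atp6v0d1. Atp6v0d1 had 284, 276 and 276 TPM in the Q11 libraries, 286, 285 and 298 TPM in the M2 libraries and 289, 281 and 302 TPM in the Ctrl libraries. Atp6v0d2 stayed under the filter, at 0.303, 0.0775 and 0.0737 TPM in the Q11 libraries, 0.146, 0.393 and 0.154 TPM in the M2 libraries and 0.152, 0.146 and 0.226 TPM in the Ctrl libraries, which is 1 to 5 reads in each library. The d subunit transcripts were thus almost entirely Atp6v0d1 in every group. Atp6v0b (301 to 335 TPM), which joins Atp6v0c in the proton ring, Atp6v0e (146 to 170.1 TPM) and Atp6v0e2 (73.3 to 86.8 TPM) had groups that overlapped against Ctrl.

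The ring protein gene Atp6v0c cannot be read with confidence here. Atp6v0c itself was at 258 to 296 TPM, while its copy Atp6v0c-ps2, a pseudogene at GRCm38 chr6:37806086-37806550, was listed at 2396 to 2710.2 TPM and took 56.4 ± 1.14% of the reads of Atp6v0c and its copies in Q11, 56.4 ± 2.70% in M2 and 56.7 ± 1.17% in Ctrl cells (SD, n = 3 each). The counting may have split the reads of a near-identical pair, so both values are uncertain. Neither passed in any comparison.

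Besides Atp6v0d2, 6 further V-ATPase genes were below the filter. They were Atp6v1b1 (0.0908 to 0.382 TPM), the B subunit of kidney and inner ear, Atp6v1c2 (0 to 0.385 TPM), the testis form Atp6v1e2 (0 to 0.164 TPM), Atp6v1fnb (0 to 0.583 TPM), the pseudogene Atp6v0c-ps1 (0 to 0.885 TPM) and Atp6v0a4, named above. A library with 0 reads of a gene still allows up to 3 reads, for counting error only. The accessory proteins Atp6ap1 and Atp6ap2, which take part in the assembly of the pump, had 385, 366 and 363 TPM and 129, 128 and 134 TPM in the Q11 libraries. They had 376, 364 and 384 TPM and 116, 129.9 and 114 TPM in M2. In Ctrl they had 404, 397 and 383 TPM and 136, 129.8 and 142 TPM. In M2 cells Atp6ap2 had a log2 difference of -0.18 that did not pass with limma (adjusted p = 0.0555) but passed with limma-voom (adjusted p = 0.0115).

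Outside the pump, the 2 genes with the smallest p in M2 cells against Ctrl were Lipa and Lamp2. Lipa, lysosomal acid lipase, which frees cholesterol and fatty acids from internalised lipoproteins (ENSMUSG00000024781, GRCm38 chr19:34492318-34527474, minus strand), had 297, 305 and 307 TPM in the Q11 libraries, 296, 305 and 302 TPM in the M2 libraries and 347, 354 and 339 TPM in the Ctrl libraries. All 6 treated libraries lay below the 3 Ctrl libraries, and Q11 and M2 overlapped. The log2 difference was -0.20 in M2 (95% interval -0.26 to -0.14, adjusted p = 0.00133) and -0.19 in Q11 cells (-0.25 to -0.13, adjusted p = 0.00192), and both calls held in 21 of 21 settings. Lamp2, a membrane glycoprotein needed for the fusion of autophagosomes with lysosomes (ENSMUSG00000016534, GRCm38 chrX:38401357-38456454, minus strand), had 184, 189 and 189.8 TPM in the Q11 libraries, 173, 185 and 166 TPM in the M2 libraries and 221, 208 and 213 TPM in the Ctrl libraries. Neither treated group overlapped Ctrl, and M2 replicates 1 and 3 were the lowest of all, while M2 replicate 2 lay among the Q11 libraries. Its log2 difference was -0.29 in M2 (95% interval -0.38 to -0.20, adjusted p = 0.00201, held in 21 of 21 settings) and -0.19 in Q11 cells (-0.28 to -0.10, adjusted p = 0.0190). The call in Q11 cells was lost without Ctrl replicate 1 or 3 or any 1 of the Q11 libraries, with an adjusted p of up to 0.0676. It was lost also without a mean-variance trend.
Between Q11 and M2 the log2 difference of Lamp2 was 0.10 (95% interval 0.01 to 0.20, adjusted p = 0.386). Lamp1, its close relative, had 1024, 1045 and 1028 TPM in the Q11 libraries, 1021, 1021 and 1077 TPM in the M2 libraries and 1022, 1038 and 1002 TPM in the Ctrl libraries. The 3 groups of Lamp1 overlapped, with a log2 difference of 0.03 in M2 (95% interval -0.04 to 0.09), which turned to -0.03 with quantile normalization, and 0.02 in Q11 cells (-0.05 to 0.08). The ratio of Lamp2 to Lamp1 was 0.182 ± 0.00255 in Q11, 0.168 ± 0.0131 in M2 and 0.210 ± 0.00824 in Ctrl cells (SD, n = 3 each).

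The promoter windows of these 2 genes and of Grn are shown as those of the falling genes to be set beside Atp6v1a; they lie at GRCm38.p6 chr19:34527425-34527724 (minus strand) for Lipa, chrX:38456411-38456710 (minus strand) for Lamp2 and chr11:102430257-102430556 (plus strand) for Grn, and each is given 5′ to 3′.
Lipa: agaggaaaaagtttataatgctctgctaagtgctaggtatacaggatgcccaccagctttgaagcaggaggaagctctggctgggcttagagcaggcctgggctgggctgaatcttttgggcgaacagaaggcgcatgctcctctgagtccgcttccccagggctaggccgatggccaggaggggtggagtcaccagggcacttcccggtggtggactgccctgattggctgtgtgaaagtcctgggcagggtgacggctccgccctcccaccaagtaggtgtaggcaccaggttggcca
Lamp2: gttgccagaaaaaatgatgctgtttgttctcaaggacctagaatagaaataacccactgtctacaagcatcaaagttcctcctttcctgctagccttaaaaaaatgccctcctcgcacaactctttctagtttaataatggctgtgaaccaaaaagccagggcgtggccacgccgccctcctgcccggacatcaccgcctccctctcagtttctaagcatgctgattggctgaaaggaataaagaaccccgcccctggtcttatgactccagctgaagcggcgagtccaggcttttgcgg
Grn: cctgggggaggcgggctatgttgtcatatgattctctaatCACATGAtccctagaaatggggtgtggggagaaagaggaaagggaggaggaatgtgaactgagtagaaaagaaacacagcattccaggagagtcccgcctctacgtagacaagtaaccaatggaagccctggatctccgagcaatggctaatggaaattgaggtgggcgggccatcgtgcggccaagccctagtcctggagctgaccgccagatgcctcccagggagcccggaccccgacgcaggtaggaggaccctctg
The capitals in Grn mark an M-box on the opposite strand. None of the 4 motifs matched in the windows of Lipa and Lamp2. Over the 6 genes that fell in M2 cells and had a window, 0 held a CLEAR core, 0 an E-box and 2 an M-box. Of all 38 genes with a window, 5, 8 and 6 held these motifs, and of all windows 0.974%, 7.15% and 3.77% did. Gla, which has a CLEAR core, fell in Q11 cells. Whether the motifs differ between rising and falling genes was not tested.

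Grn encodes progranulin, which is cleaved in the lysosome into granulins and supports hydrolase activity (GRCm38 chr11:102430315-102437048, plus strand). Grn had 1288, 1285 and 1278 TPM in the Q11 libraries, 1305, 1263 and 1368 TPM in the M2 libraries and 1429, 1455 and 1451 TPM in the Ctrl libraries, without overlap against Ctrl. Grn fell by 0.17 on the log2 scale in Q11 cells (adjusted p = 0.00771, held in 21 of 21 settings) and by 0.14 in M2 cells (adjusted p = 0.0168). The M2 call was lost without Ctrl replicate 2, Ctrl replicate 3 or M2 replicate 1, with an adjusted p of up to 0.0554. It was lost also with only the M2 and Ctrl libraries in the fit (adjusted p = 0.0637), without a mean-variance trend and without a filter on low values. Ppt1, which strips palmitate from proteins, had 211, 219 and 220.4 TPM in the Q11 libraries, 194, 216 and 218 TPM in the M2 libraries and 243, 248 and 234 TPM in the Ctrl libraries. Both treated groups lay below Ctrl, by 0.21 on the log2 scale in M2 cells (adjusted p = 0.0191, up to 0.0634 without Ctrl replicate 1 or 2), while in Q11 cells the log2 difference of -0.15 did not pass with limma (adjusted p = 0.0661) but did with limma-voom (adjusted p = 0.00878, and 0.0150 after separation). The M2 call of Ppt1 was lost also with only the M2 and Ctrl libraries in the fit (adjusted p = 0.0579) and without a mean-variance trend.

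Smaller falls were called for 4 glycosidases. Hexa, which takes part in the breakdown of ganglioside GM2, had 742, 736 and 728 TPM in the Q11 libraries, 756, 724 and 784 TPM in the M2 libraries and 811, 832 and 803 TPM in the Ctrl libraries. It fell by 0.15 on the log2 scale in Q11 (adjusted p = 0.0175) and by 0.11 in M2 cells (adjusted p = 0.0481). Neu1, the lysosomal sialidase, had 237, 241 and 238 TPM in the Q11 libraries, 235, 237 and 248 TPM in the M2 libraries and 257, 259 and 255 TPM in the Ctrl libraries, and it fell by 0.11 in Q11 (adjusted p = 0.0325) and by 0.10 in M2 cells (adjusted p = 0.0384). For Hexa and Neu1 the treated libraries lay below all Ctrl libraries. In M2 cells, however, both were called in 1 of 9 fits without 1 library, that without M2 replicate 3, and neither was called with the shared reads separated (adjusted p = 0.0746 for Hexa and 0.0867 for Neu1). Gusb, beta-glucuronidase, had 594, 585 and 578 TPM in the Q11 libraries, 575, 591 and 632 TPM in the M2 libraries and 629.6, 665 and 642 TPM in the Ctrl libraries. Gla, the alpha-galactosidase that clears globotriaosylceramide, had 159, 160.1 and 159 TPM in the Q11 libraries, 157, 160.3 and 168 TPM in the M2 libraries and 173, 179 and 168 TPM in the Ctrl libraries.
For Gusb and Gla the Q11 libraries lay below Ctrl and the M2 libraries overlapped it. They fell in Q11 cells by 0.14 (adjusted p = 0.0450) and 0.12 (adjusted p = 0.04997) on the log2 scale. Of the 9 fits without 1 library, these Q11 falls were called in 2 for Gusb, 2 for Gla, 3 for Neu1 and 6 for Hexa, with adjusted p-values of up to 0.148 for Gusb. With the shared reads separated the Q11 differences of Neu1, Gusb and Gla did not pass with limma (adjusted p = 0.120, 0.0872 and 0.108). With limma-voom after separation that of Gusb passed (adjusted p = 0.00934), while those of Neu1 and Gla did not (adjusted p = 0.0760 and 0.0673).

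**Figure D4:**
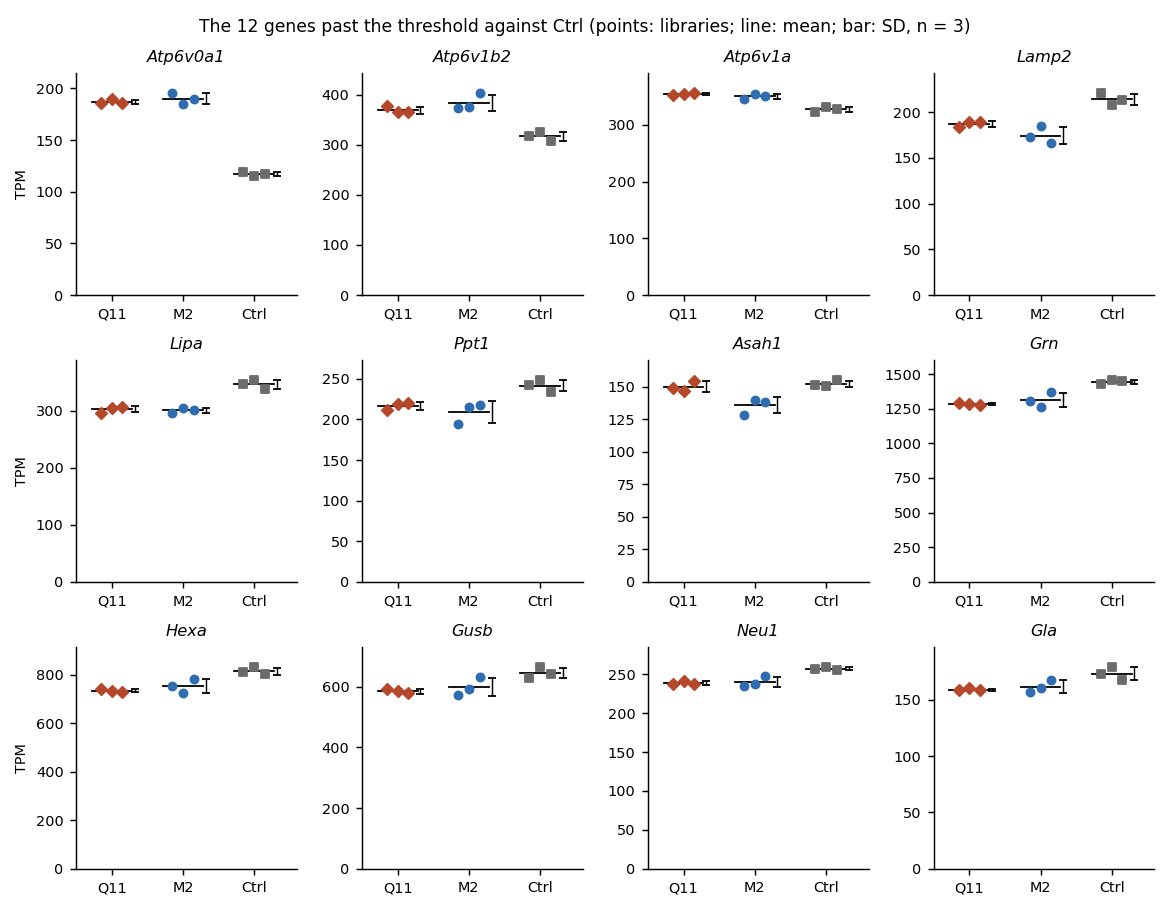
TPM in each library of the 12 genes that passed the threshold in Q11 or M2 cells against Ctrl, with the mean (line) and SD (bar, n = 3). Atp6v0a1, Atp6v1b2 and Atp6v1a lie higher in Q11 and M2 than in Ctrl, and the other 9 lie lower in at least 1 of the treated groups.

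Psap, Tpp1, Man2b1 and Glb1 made up the rest of the lumenal proteins, and none of them passed against Ctrl with limma. The summed level of the 12 lumenal genes was 6502, 6533 and 6511 TPM in the Q11 libraries, 6592, 6514 and 6993 TPM in the M2 libraries and 6998, 7127 and 7053 TPM in the Ctrl libraries. M2 replicate 3 stood apart from the other M2 libraries in this sum. Without Psap the sum was 4199, 4205 and 4177 TPM in the Q11 libraries, 4167, 4156 and 4409 TPM in the M2 libraries and 4578, 4690 and 4599 TPM in the Ctrl libraries, so that M2 replicate 3 lay between the other M2 libraries and Ctrl. Without M2 replicate 3, 13 of the 39 genes were called in M2 against Ctrl, with 3 rises and 10 falls. Over all 14207 genes tested, that fit called 1356, with 693 rises and 663 falls. Of the membrane proteins, Laptm5 (649 to 738 TPM), a lysosomal protein of blood cells, Scarb2 and Mcoln1 did not pass.

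Regulators of the TFEB family showed no call. Tfeb had 16.3, 18.4 and 17.4 TPM in the Q11 libraries, 18.3, 17.6 and 17.4 TPM in the M2 libraries and 16.5, 15.97 and 18.2 TPM in the Ctrl libraries. Tfe3 had 26.2, 26.6 and 25.5 TPM in the Q11 libraries, 25.0, 25.2 and 25.0 TPM in the M2 libraries and 25.3, 24.5 and 26.5 TPM in the Ctrl libraries. Mitf had 31.9, 31.8 and 31.7 TPM in the Q11 libraries, 31.5, 30.5 and 30.6 TPM in the M2 libraries and 32.4, 28.1 and 31.3 TPM in the Ctrl libraries. For each of the 3 genes, both treated groups overlapped Ctrl. Their log2 differences in M2 against Ctrl were 0.07 (95% interval -0.08 to 0.22) for Tfeb, -0.02 (-0.11 to 0.07) for Tfe3 and 0.02 (-0.10 to 0.13) for Mitf, with the sign of the last 2 turning when 1 Ctrl library was left out. These factors are known to be controlled largely by their move into the nucleus, which RNA levels do not measure.

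The fourth gene of that family, Tfec, known mainly from macrophages, was on the list of autophagy genes and rose. Tfec had 4.12, 3.76 and 3.43 TPM in the Q11 libraries, 4.27, 3.59 and 4.64 TPM in the M2 libraries and 1.44, 1.91 and 1.098 TPM in the Ctrl libraries. Every treated library lay above every Ctrl library. The log2 difference of Tfec was 1.07 in M2 (95% interval 0.72 to 1.42, adjusted p = 0.00264) and 0.95 in Q11 cells (0.60 to 1.304, adjusted p = 0.00516), and both calls held in 9 of 9 fits without 1 library. The summed level of the 4 family genes was 79.0 ± 1.34 TPM in Q11, 77.9 ± 1.14 TPM in M2 and 74.4 ± 3.51 TPM in Ctrl cells (SD, n = 3 each).

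Cd63, a tetraspanin of late endosomes and lysosomes (ENSMUSG00000025351, GRCm38 chr10:128900989-128912822, plus strand), was nearly unread. Cd63 had 0, 0.0572 and 0 TPM in the Q11 libraries, 0, 0.290 and 0.170 TPM in the M2 libraries and 0, 0.268 and 0.0556 TPM in the Ctrl libraries, or at most 5 reads in a library. Other tetraspanins, chosen after these values were seen, were well read: over the 9 libraries Cd53 had 669 to 874 TPM, Cd9 276 to 375 TPM, Cd81 260.0 to 321 TPM and Cd82 80.4 to 97.7 TPM. The genes around Cd63, chosen likewise, fell into 2 kinds. Gdf11, Rdh5, Bloc1s1, Itga7 and Mettl7b, whose nearest ends lie 770 to 45451 bases from Cd63, reached at most 1.23 TPM in any library. Bloc1s1, which encodes a subunit of complexes that position lysosomes and related organelles, had 0.159 to 1.23 TPM. On the far side of Gdf11, Sarnp had 69.3 to 92.1 TPM, Ormdl2 37.9 to 51.1 TPM and Dnajc14 30.5 to 35.1 TPM. The pseudogene Cd63-ps was not analysed here, and whether reads of Cd63 were assigned elsewhere was not tested.

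**Figure D5:**
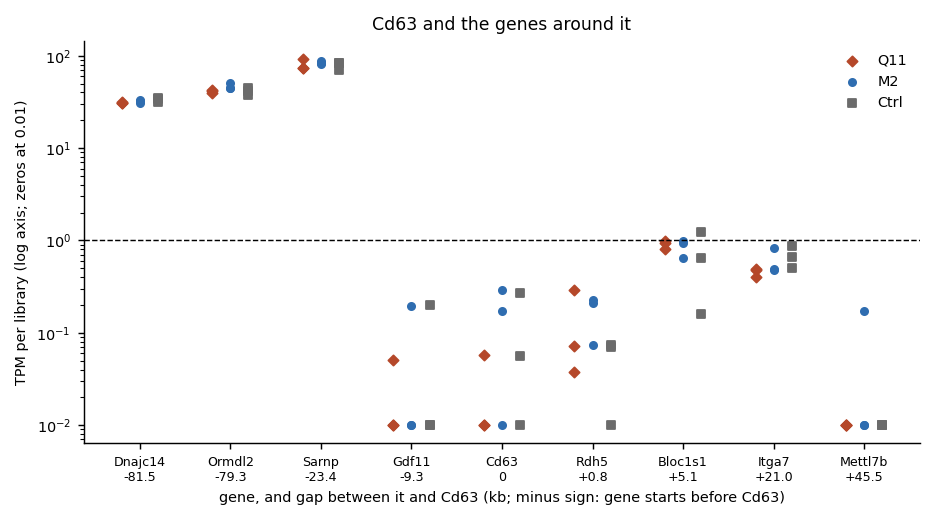
TPM per library (log axis, zeros drawn at 0.01) of Cd63 and 8 genes around it, ordered by the gap to Cd63 in kb, with a dashed line at 1 TPM. Gdf11, Cd63, Rdh5, Bloc1s1, Itga7 and Mettl7b lie at or under 1.23 TPM in the Q11, M2 and Ctrl libraries, while Sarnp, Ormdl2 and Dnajc14 lie at 30.5 TPM or more.

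Other genes of the lysosome were counted by list. The shares over all genes to set beside them are 6.88% risen and 5.75% fallen in M2, and 5.19% and 5.53% in Q11 cells, against Ctrl. Such shares depend also on the width of the intervals, which was not compared between these lists and all genes. On the list of 28 further enzymes, 3 rose and 5 fell in M2 (2 and 3 after separation of the shared reads) and 1 rose and 4 fell in Q11 cells against Ctrl (1 and 4 after separation). That list also holds Pla2g7, which encodes a secreted phospholipase and not a resident lysosomal enzyme; it had the smallest p in M2 cells, with a log2 difference of -0.77 (adjusted p = 0.000796) in M2 and -0.50 (adjusted p = 0.00846) in Q11 cells. The lysosomal alpha-fucosidase Fuca1 had the smallest p on that list in Q11 cells, at 138 ± 2.72 TPM in Q11, 144 ± 4.35 TPM in M2 and 166 ± 1.90 TPM in Ctrl cells (SD, n = 3 each). The asparagine-specific protease Lgmn, legumain, rose in Q11 cells, at 666 ± 3.19 TPM in Q11, 671 ± 29.5 TPM in M2 and 591 ± 6.18 TPM in Ctrl cells, with a log2 difference of 0.17 in Q11 against Ctrl (adjusted p = 0.00965). Of 24 membrane and sorting genes, 3 rose and 3 fell in M2 and 4 rose and 4 fell in Q11 cells against Ctrl (3 and 1, and 2 and 2, after separation). Npc1, which exports cholesterol from the lysosome, had a log2 difference of 0.28 in M2 (adjusted p = 0.00601) and 0.24 in Q11 cells (adjusted p = 0.0127), while its partner Npc2 had -0.21 in Q11 cells (adjusted p = 0.00555).

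Assembly factors of the V-ATPase, with Tcirg1, gave 0 rises and 1 fall among 11 tested genes in each comparison with Ctrl; after separation, 0 rose and 1 fell in M2, and 0 rose and 0 fell in Q11 cells. In M2 cells this was the assembly chaperone Vma21, at 45.1 ± 0.999 TPM in Q11, 37.5 ± 4.95 TPM in M2 and 50.7 ± 2.77 TPM in Ctrl cells (SD, n = 3 each), with a log2 difference of -0.43 (adjusted p = 0.0123). Of 20 nutrient sensing genes 1 rose and 2 fell in M2 cells, and 0 rose and 1, Lamtor4, fell in Q11 cells (0 and 2, and 0 and 1, after separation). Of 18 autophagy genes 2 rose and 2 fell in each, with Tfec and the vesicle fusion gene Vps33a as the rises (2 and 1 in M2, and 2 and 2 in Q11 cells, after separation). Q11 against M2 called 0 genes on each of these lists with limma.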

How the data were processed

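Poly-A RNA of J774A.1 cells was sequenced in 3 groups (Q11, M2 and Ctrl) of 3 libraries. The authors deposited TPM values per gene; per the submitters' processing notes, the tools and build were HISAT2 2.0.5, StringTie 1.3.3b and GRCm38. Strand and counting settings are not given in the sources used here. All members and lists were chosen with earlier results of these data known. The 14207 of 26157 genes that reached 1 TPM in 3 or more libraries were fitted as log2(TPM + 1) in 1 limma model over all 3 groups with a mean-variance trend (limma 3.58.1, R 4.3.3), with Benjamini-Hochberg adjustment over all of them and a threshold of 0.05. Fold changes on this scale understate changes of low genes. Other steps used Python 3.11.15, pandas 2.3.3, numpy 2.4.6 and scipy 1.17.1, and the fit was tested on simulated data. Whole reads were recovered from TPM and exon lengths for 25594 genes, and 98.8 to 99.1% of low values came out whole within 0.1 read. Values in every library are given for members past the threshold against Ctrl that reached 5 TPM in a group, for the regulators, Lamp1, Lamp2 and Cd63 and for paralogous V-ATPase subunits; other members are given by range, and other lists by up to 4 called genes of smallest p. Replicate numbers did not pair the libraries (correlation of same-numbered deviations -0.0309 to 0.0362), so no block was used. Alternatives were other pseudocounts, filters, scalings and fits, and leaving out each library.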

Additional observations from a re-analysis of the deposited data

How the results depend on the processing

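Called in 21 of 21 settings were Atp6v0a1, Atp6v1b2 and Lipa in both comparisons with Ctrl, Lamp2 in M2 and Grn in Q11 cells. In M2 against Ctrl, 1794 genes and 10 members were called. With only the 2 groups in the fit these were 1054 genes and 4 members, and without a trend 1312 genes and 4 members. Fits without 1 library gave 1139 to 1651 genes and 5 to 13 members. In Q11 against Ctrl, 1524 genes and 10 members were called, and 1103 genes and 4 members without a trend. Without 1 library there were 776 to 1613 genes and 4 to 11 members. With the replicate block, 1086 genes and 6 members were called in Q11 against Ctrl, 1335 and 8 in M2 against Ctrl, and 0 and 0 in Q11 against M2; the libraries share only a number. In Q11 against M2, 3 genes were called without a filter, 2 without a trend, 2 by limma-voom and 0 to 2 without 1 library. Limma-voom with the shared reads separated called 0. The cause of these changes was not tested.

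Some small differences changed sign. Quantile normalization gave -0.0298 for Lamp1 in M2 against Ctrl and 0.00610 for Grn in Q11 against M2, and separating shared reads gave 0.00656 for Neu1 in Q11 against M2. Without 1 library, M2 against Ctrl ran from -0.0472 to 0.00746 for Tfe3 and from -0.0434 to 0.0569 for Mitf. Q11 against M2 ran from -0.0398 to 5.14e-05 for Atp6v0a1, -0.0443 to 0.00286 for Gla, -0.0571 to 0.000167 for Grn, -0.0608 to 0.00707 for Gusb, -0.00231 to 0.0237 for Lipa and -0.0217 to 0.0159 for Neu1. In the 250 bases before the start alone, 3 windows held a CLEAR core. Normalization with TMM and tests with edgeR and DESeq2 were not run, since the deposited values are TPM. Limma-voom used median-of-ratios scaling in place of TMM, and it was run also with the shared reads separated; both were chosen after seeing the data.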
